A study of Mus musculus with 7 samples.

Results

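Described here are 10 adhesion genes in sorted type 2 innate lymphoid cells (ILC2s) of the mouse heart: the integrin subunit genes Itgae, Itgal, Itga4, Itga6, Itgb1, Itgb2 and Itgb7, the selectin ligand gene Selplg, the hyaluronan receptor gene Cd44 and the integrin ligand gene Icam1. They were chosen by symbol, and each of the 10 symbols matched 1 of the 55335 identifiers of the deposited tables. Libraries of 2 groups were compared, 3 of naive hearts and 4 of cardiac allografts. The allografts were Balb/C hearts placed in C57BL/6 recipients, a model of acute rejection, and were harvested 7 days after transplantation. The naive samples carry the same time label of 7 days, and their strain was not given in the sources used here, nor were sex and age. In both groups the sort kept cells positive for CD45 and ST2 and negative for lineage markers, and each library pooled the cells of 4 to 7 hearts, so the pool is the replicate. In an allograft, cells of the donor and of the recipient can both pass this gate. In bulk RNA of such pools, fewer cells of a type and less RNA per cell cannot be told apart.

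Integrins are heterodimers of an alpha and a beta chain that bind ligands on other cells or in the matrix, and leukocytes use them to roll, arrest, cross endothelium and stay in tissue. The product of Itgae pairs only with that of Itgb7 and binds E-cadherin, Itgal pairs with Itgb2 to form the receptor of ICAM proteins, and Itga4 pairs with Itgb1 or Itgb7 to bind VCAM and MAdCAM. Selplg encodes the ligand that P-selectin captures from flow, and Cd44 encodes a receptor of hyaluronan that marks activated lymphocytes. Icam1 encodes a ligand of the Itgal/Itgb2 dimer and is a classical target of inflammatory cytokines.

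Total counts ran from 43591167 to 53044907 in the naive and from 29107326 to 44023726 in the allograft libraries. The library labelled naive replicate 2 stood apart from the other 6, and its transcripts went against its label as sorted ILC2s. Its 12 ILC2 markers summed to 199 CPM (counts scaled to a common library total), against 6312 to 8293 CPM in the other 6, and Il1rl1, which encodes ST2, had 6.79 CPM there against at least 343 CPM elsewhere. Mitochondrial transcripts made up 26.5% of its counts and at most 3.11% in every other library. A list of 6 kidney epithelium genes summed to 9762 CPM in it and to at most 244 CPM in the others. Of the 10 members, 6 were at their lowest of the 7 libraries in naive replicate 2 (Itgal, Itga4, Itgb2, Itgb7, Selplg and Cd44), 18.1 to 53.7 times below the mean of naive replicates 1 and 3. Over all tested genes, 31.3% had their lowest value there. Fold changes of the members are therefore given with and without that library, as are the counts of the wider lists. Naive replicates 1 and 3 had a count in 15820 and 13864 genes, fewer than the 19235 to 21354 genes of the allografts although their totals were similar or higher, and naive replicate 2 had one in 20254.

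No member passed an adjusted p of 0.05 over all 7 libraries (edgeR quasi-likelihood test, Benjamini-Hochberg adjustment over 17015 genes), where 0.0353% of all tested genes did (0.0294% higher and 0.00588% lower in allografts). At an unadjusted p under 0.05 there were 2 members, Itgae and Icam1, against 10.3% of all genes. DESeq2 called 1 member, Itgae (6.51% of all genes), and so did limma on log2(FPKM + 1) (0.447% of all genes). Without naive replicate 2, edgeR called 2 members, Itgae and Icam1, both higher in allografts, where 3.1% of all genes were called, 3% higher and 0.0998% lower. Of these, Itgae had 0 counts in both naive libraries left, so it could only be called higher. In each of 3 members, Itgae, Itgb7 and Icam1, every allograft library lay above every naive library. The same held for 12.5% of all tested genes. Without naive replicate 2 it held for the same 3 members and for 21% of all genes. No member had every allograft below every naive library, as 2.15% of all genes did. The log2 fold change (allograft over naive) was above 0 for 7 of the 10 members and 49.4% of all genes, and for 8 members and 58.7% of all genes without naive replicate 2. The median log2 fold change of the 10 members was 0.95 and that of all genes -0.01. Without naive replicate 2 the medians were 0.48 and 0.23.

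**Figure D1:**
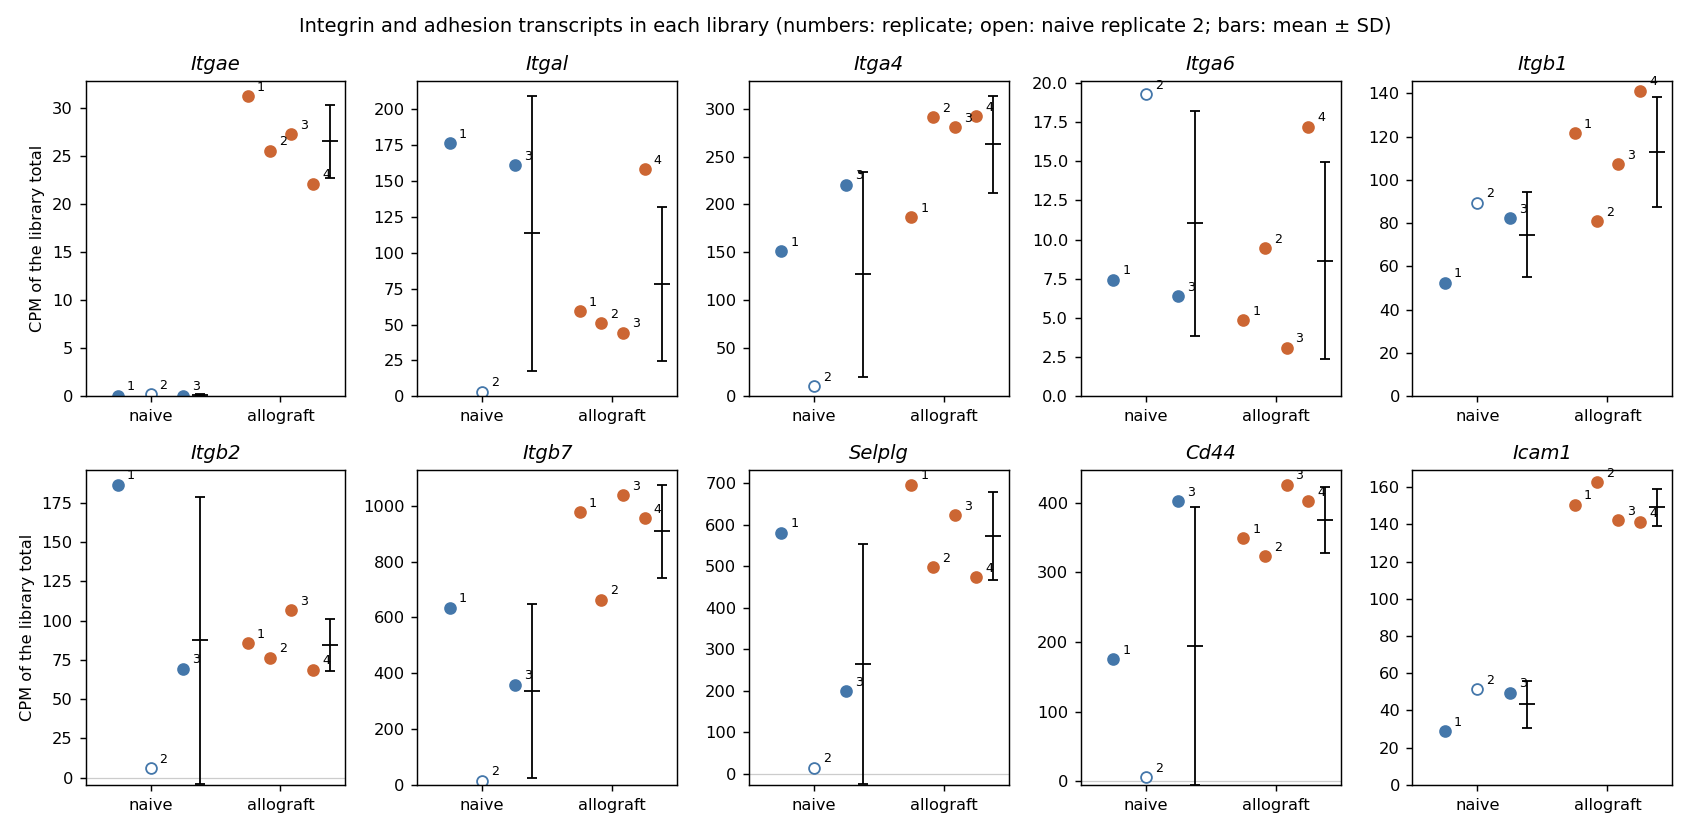
CPM of the 10 members in each library (vertical axes start at or just below 0; numbers are replicates, open circles naive replicate 2, bars mean ± SD of 3 naive and 4 allograft libraries). Itgae and Icam1 separate the groups by a wide margin, Itgb7 narrowly (664 CPM in the lowest allograft, 635 in the highest naive library), and the other 7 overlap.

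Itgae (ENSMUSG00000005947, chr11:73090583-73147446, plus strand, GRCm38) encodes integrin alpha E (CD103), a chain known from intraepithelial lymphocytes and from a subset of dendritic cells. It had 0 counts in naive replicates 1 and 3, which allows up to 0.0566 and 0.0688 CPM, and 7 counts (0.154 CPM) in naive replicate 2. The allografts had 31.2, 25.6, 27.3 and 22.1 CPM, a mean of 26.5 ± 3.80 (SD, n = 4). Counts were thus at or near 0 in all naive libraries and at least 643 in all allografts. The 2 naive libraries with 0 counts were also those with the fewest genes detected (15820 and 13864, against at least 19235 in the allografts), and the part of this in the Itgae difference was not tested. The lowest allograft lay 144 times above naive replicate 2, or 69.7 times above the upper bound of its count (14.4, exact Poisson 95% interval from 2.81, which covers counting error only). Both folds are per library total, and naive replicate 2 held few leukocyte transcripts. Ptprc, the gene for CD45, had 11.7 CPM there and at least 239 CPM in every other library. Itgae per Ptprc, as a ratio of FPKM, was 0.0479 in naive replicate 2 and 0.138 to 0.318 in the allografts, a far smaller gap. Against the floor of 3 counts in naive replicates 1 and 3, the allograft mean was at least 423-fold higher. The fitted log2 fold change was 8.47 (SE 1.83, edgeR adjusted p = 0.144) over all 7 libraries. It passed without naive replicate 2 (adjusted p = 0.0161). With 0 counts in both naive libraries left, Itgae passed the count filter of that fit through the allografts and could only be called higher. The gene Haspin lies within the span of Itgae on the opposite strand and shares 0 exon bases with it. It had 654 counts in naive replicate 1, where Itgae had 0.

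Markers of other cells that carry alpha E were read beside this difference. Dendritic cell markers (6 genes) summed to 12.7 to 31.8 CPM in the naive and to 72.02 to 102 CPM in the allograft libraries. All 6 were above 3 counts in each allograft library, and 3 of the 6 (Flt3, Zbtb46 and Clec9a) were higher in every allograft than in every naive library, Flt3 with at most 1.38 CPM in naive and 16.3 to 27.2 CPM in allograft libraries. The other 3 were not, among them Xcr1 with 30.9 CPM in naive replicate 3 against 13.5 to 25.4 CPM in allografts, and Cd209a with 18.2 CPM in naive replicate 2 against 3.40 to 10.9 CPM. In naive replicate 1 only Xcr1 of the 6 was above 3 counts. T cell markers (8 genes) summed to 24.7 to 542 CPM in naive and to 583 to 729 CPM in allograft libraries, mostly Trbc2 and Cd3g. Trac, like Trbc2 and Cd3g, was higher in every allograft (12.5 to 19.6 CPM) than in every naive library (5.06 to 10.6 CPM). Cd3d had 32.5 CPM in naive replicate 3, against 3.57 to 8.64 CPM in the allografts. Cd4 had 11.6 CPM in naive replicate 3 and at most 0.721 CPM in the allografts. Cd3e stayed at or below 1.24 CPM and Cd8a at or below 2.25 CPM in all 7 libraries. NK cell markers (5 genes) summed to 0.641 to 30.7 CPM in naive and to 35.1 to 59.1 CPM in allograft libraries. Among them, Klrb1c, Klra8 and Prf1 were higher in every allograft than in every naive library, and Ncr1 and Eomes were not. Ncr1 had 28.8 CPM in naive replicate 3, against 11.4 to 26.8 CPM in the allografts. The lineage-negative gate was meant to remove such cells, and their part in the Itgae difference was not tested.

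**Figure D2:**
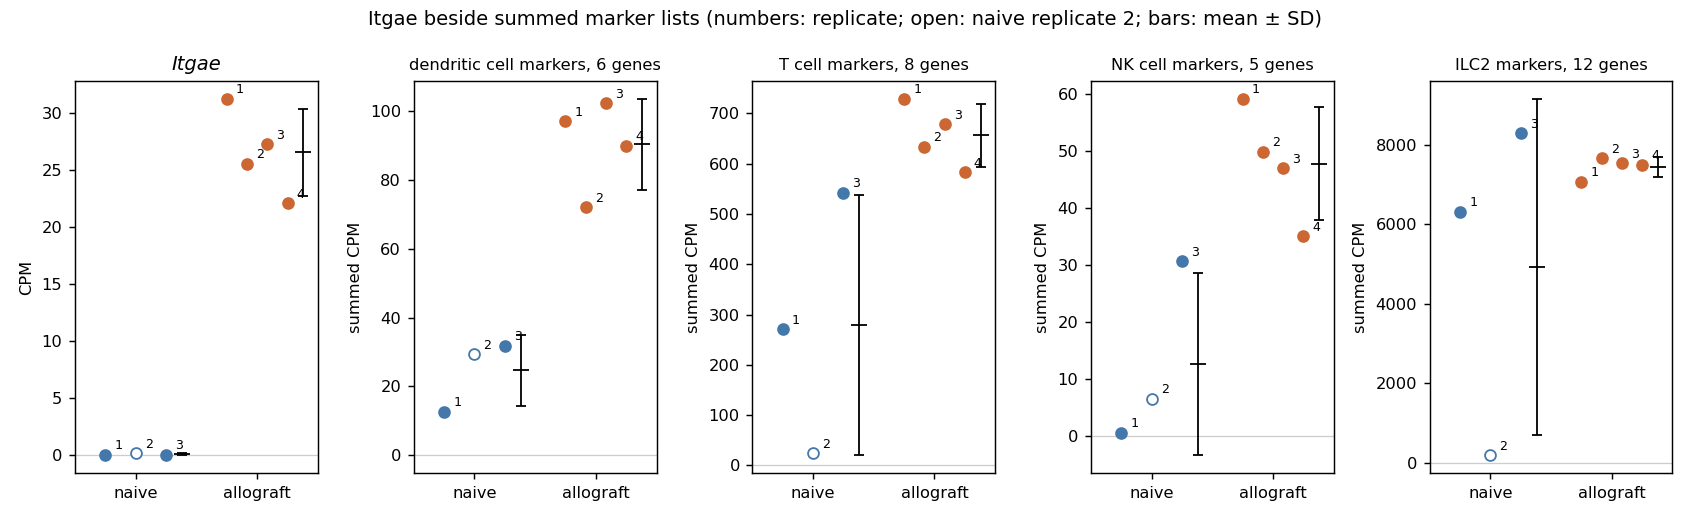
CPM of Itgae and summed CPM of marker lists by library (numbers are replicates, open circles naive replicate 2, bars mean ± SD). The dendritic, T and NK cell sums are higher in all 4 allografts than in all 3 naive libraries, while the ILC2 sum of the allografts (7074 to 7666 CPM) lies between those of naive replicates 1 and 3.

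Itgal (ENSMUSG00000030830, chr7:127296260-127335138, plus strand) encodes alpha L, the alpha chain of LFA-1. The naive libraries held 176, 3.14 and 161 CPM, and the allografts 59.3, 50.9, 44.4 and 158 CPM. Without naive replicate 2, all 4 allografts lay below both naive libraries, as for 7.15% of all genes, but allograft replicate 4 came within 2.63 CPM of naive replicate 3. Its log2 fold change was -0.56 (SE 1.01, edgeR adjusted p = 0.930), or -1.16 (SE 0.540, adjusted p = 0.288) without naive replicate 2.

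Itga4 (ENSMUSG00000027009, chr2:79255426-79333123, plus strand) encodes alpha 4, which serves in VLA-4 and in the gut-homing dimer with beta 7. It had 151, 10.3 and 220 CPM in naive and 187, 291, 281 and 292 CPM in allograft libraries. Allograft replicate 1 lay below naive replicate 3 and the other allografts above it. Over all libraries the log2 fold change was 0.99 (SE 0.762, edgeR adjusted p = 0.760), or 0.44 (SE 0.286, adjusted p = 0.426) without naive replicate 2. Exons of Itga4 share 1124 bases with Cerkl on the opposite strand. Cerkl had at most 438 counts in any library, against 8020 or more for Itga4 outside naive replicate 2, and the use of strand in counting was not given in the sources used here.

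Itga6 (ENSMUSG00000027111, chr2:71745616-71858416, plus strand) encodes alpha 6, a laminin-binding chain. It was low throughout, with 7.43, 19.3 and 6.38 CPM in naive and 4.86, 9.44, 3.08 and 17.2 CPM in allograft libraries. Its highest value of all was that of naive replicate 2. The groups overlapped, and the log2 fold change turned from -0.72 (SE 0.882, edgeR adjusted p = 0.872) to 0.28 (SE 0.825, adjusted p = 0.905) without that library.

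Of the beta chains, Itgb7 (ENSMUSG00000001281, chr15:102215995-102231944, minus strand) was the most abundant. It had 635, 14.7 and 359.7 CPM in naive and 978, 664, 1038 and 956 CPM in allograft libraries. All 4 allografts lay above all 3 naive libraries, by a margin of 28.6 CPM between allograft replicate 2 and naive replicate 1. This gave a log2 fold change of 1.41 (SE 0.906, edgeR adjusted p = 0.712) and 0.83 (SE 0.308, adjusted p = 0.223) without naive replicate 2.

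Itgb1 (ENSMUSG00000025809, chr8:128685654-128733200, plus strand), the widely expressed beta chain of the VLA family, behaved otherwise in naive replicate 2. It had 52.4, 89.5 and 82.3 CPM in naive and 122, 81.0, 107 and 141 CPM in allograft libraries. Allograft replicate 2 lay below naive replicates 2 and 3, and the other allografts lay above all naive libraries. Its fitted log2 change was 0.32 (SE 0.398, edgeR adjusted p = 0.874) and 0.69 (SE 0.339, adjusted p = 0.315) without naive replicate 2.

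Itgb2 (ENSMUSG00000000290, chr10:77530252-77565708, plus strand), the beta chain restricted to leukocytes, had 187, 6.11 and 69.3 CPM in naive and 85.8, 76.5, 107 and 68.7 CPM in allograft libraries. Naive replicate 1 lay above, naive replicate 3 within and naive replicate 2 below the range of the allografts. The fitted log2 change was -0.07 (SE 0.798, edgeR adjusted p = 0.994) and -0.63 (SE 0.405, adjusted p = 0.421) without naive replicate 2.

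**Figure D3:**
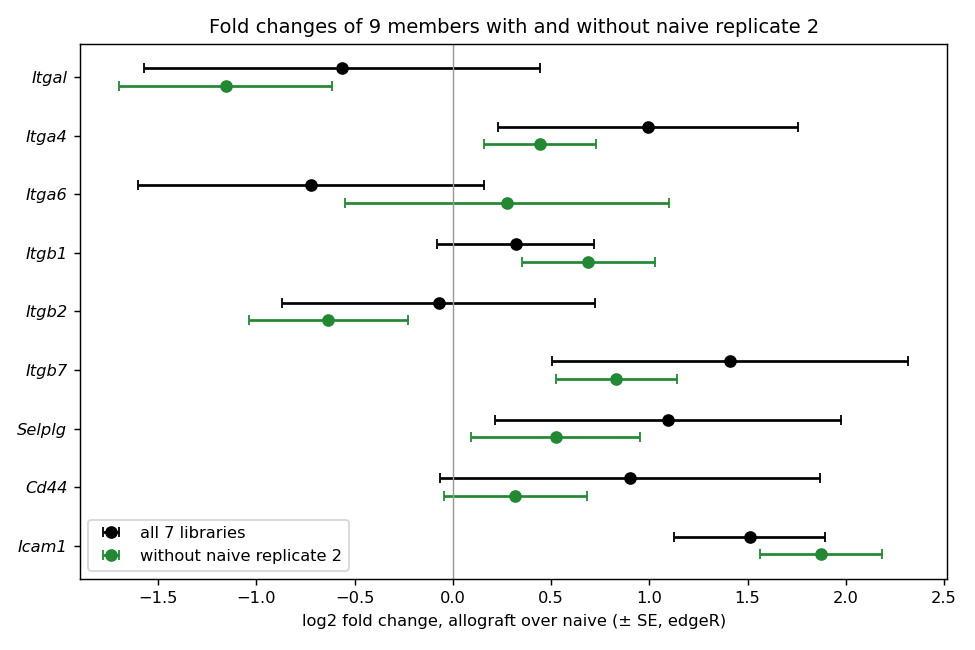
Fitted log2 fold changes (allograft over naive, ± SE) of the members other than Itgae, over all 7 libraries in black and without naive replicate 2 in green. Leaving that library out moves the leukocyte genes down (Selplg from 1.10 to 0.52, Cd44 from 0.90 to 0.32) and Itgb1, Itga6 and Icam1 up.

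Because integrin chains work as dimers, FPKM ratios of partner transcripts were formed within each library, which takes out the library scaling. Of 6 ratios, 1 separated the groups, Itgae to Itgb7. It was 0.0193, 0.0233, 0.0159 and 0.0140 in the allografts and 0.00573 in naive replicate 2. With the 3-count floor it was at most 5.3e-05 and 1.1e-04 in naive replicates 1 and 3. The difference of the log2 means was 5.77 (exact two-sided permutation p = 0.0286, the smallest that the 35 splits allow, 0.171 after adjustment over the 6 ratios). The difference depended on how the low values were treated: with 1 added to each FPKM it was 0.125 (adjusted p = 0.971, exact permutation test). The Itgae transcript thus remained below a few percent of its partner in every library.

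The ratio of Itgb1 to Itgb7 had a narrow range in the allografts, 0.0699 to 0.1001. It was 0.0559 and 0.155 in naive replicates 1 and 3 and 4.12 in naive replicate 2, so naive replicate 2 alone held more Itgb1 than Itgb7 transcript per length. The ratio of Itgal to Itgb2 ran from 0.193 to 0.321 in allograft replicates 1 to 3 and was 1.07 in allograft replicate 4. In the naive libraries it was 0.439, 0.239 and 1.08. The ratio of Itga4 to Itgb7 was 0.0377 to 0.0867 in allograft and 0.0470 to 0.137 in naive libraries. Itga4 to Itgb1 was 0.448 to 1.049 in allografts and 0.840, 0.0333 and 0.781 in naive replicates 1 to 3. Itga6 to Itgb1 was 0.0128 to 0.0540 in allograft and 0.0345 to 0.0959 in naive libraries. These 5 ratios overlapped between the groups, with exact permutation p-values of 0.171 to 0.571 (0.343 to 0.571 adjusted).

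**Figure D4:**
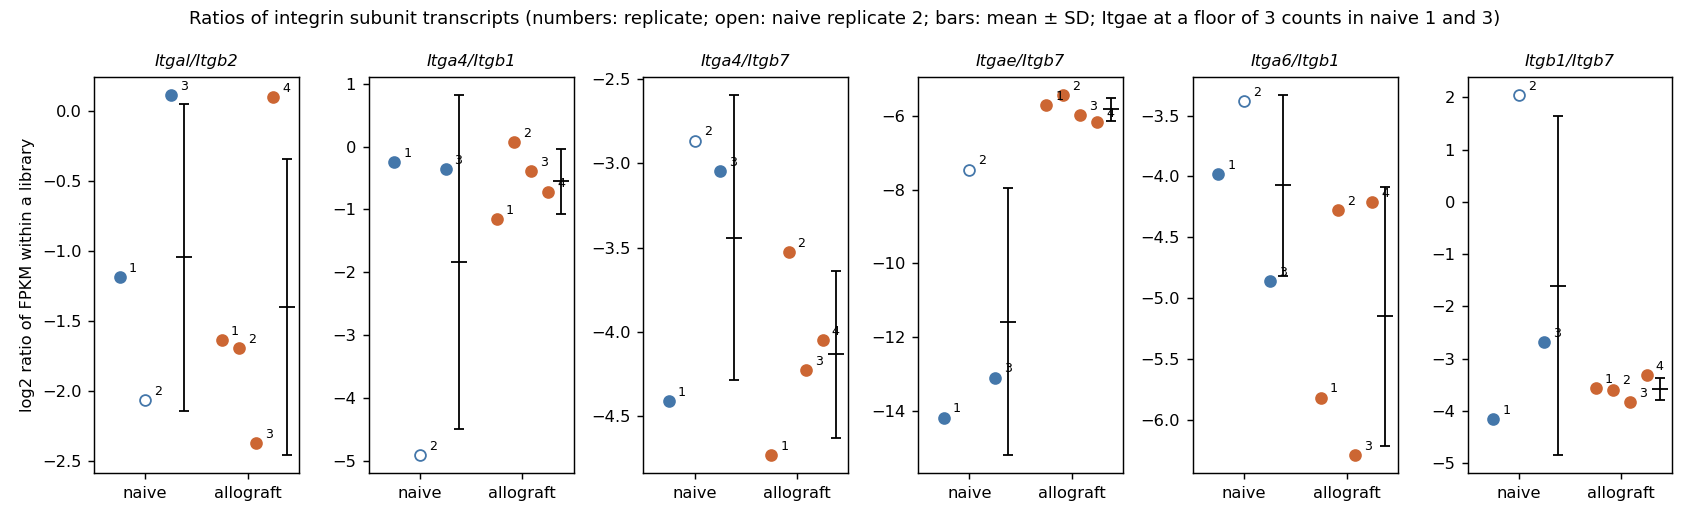
Log2 FPKM ratios of subunit transcripts within each library (numbers are replicates, open circles naive replicate 2, bars mean ± SD). Itgae to Itgb7 lies between -6.16 and -5.42 in the allografts and at or below -7.45 in the naive libraries, and the other 5 ratios overlap.

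Icam1 (ENSMUSG00000037405, chr9:21015985-21028817, plus strand), the ligand of the Itgal/Itgb2 dimer, had 28.8, 51.3 and 49.6 CPM in naive and 150.5, 163, 142 and 141 CPM in allograft libraries. The group means were 43.2 ± 12.5 (SD, n = 3) and 149 ± 9.88 (SD, n = 4). The groups were far apart and, unlike most members, Icam1 was not low in naive replicate 2. The log2 fold change was 1.51 (SE 0.385, edgeR adjusted p = 0.196), higher in 4 of 4 allografts. Without naive replicate 2 it was 1.87 (SE 0.311), a 3.66-fold rise that passed the threshold (adjusted p = 0.0437). It did not pass without any other single library, with an adjusted p of 0.113 without naive replicate 1 and 0.178 without naive replicate 3. Other cell types also carry Icam1. The endothelial list (7 genes) summed to 38.04, 497 and 8.26 CPM in naive and to 34.4 to 49.4 CPM in allograft libraries. Pecam1 made up most of the allograft sums (29.4 to 39.1 CPM, against 8.62, 37.7 and 6.97 CPM in naive replicates 1 to 3), while Cdh5 had at most 0.275 CPM in the allografts. The dendritic, T and NK cell sums given above were higher in all 4 allografts than in all naive libraries, as Icam1 was. So were the neutrophil sums (0 to 12.7 CPM in naive and 74.6 to 124 CPM in allograft libraries). In that list S100a8, S100a9 and Retnlg were higher in every allograft than in every naive library. Ly6g and Csf3r were not, with at most 2.86 and 0.309 CPM in the allografts, and each had 0 CPM in some of them. The part of cells of any of these types in the Icam1 difference was not tested. Icam1 exons share 511 bases with the antisense gene Gm47079, which had at most 134 counts in any library, against at least 4111 for Icam1 in the allografts.

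The start regions of Icam1 and Itgb7 are shown because these are the members with every allograft above every naive library that matched the RefSeq promoter table (5 of the 10 members matched, build GRCm38.p6). Each window holds the 250 bases before the RefSeq start, 5′ to 3′ on the gene's strand, at chr9:21015690-21015939 (plus) and chr15:102231936-102232185 (minus). The RefSeq starts differ from the ends of the gene positions given above, and the motif distances below are from the RefSeq start. Capitals mark motif matches.
Icam1: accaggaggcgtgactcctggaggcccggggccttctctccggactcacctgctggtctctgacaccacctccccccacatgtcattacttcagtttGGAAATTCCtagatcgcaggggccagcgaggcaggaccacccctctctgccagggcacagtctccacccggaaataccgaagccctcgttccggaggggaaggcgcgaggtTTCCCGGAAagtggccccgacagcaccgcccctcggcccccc
Itgb7: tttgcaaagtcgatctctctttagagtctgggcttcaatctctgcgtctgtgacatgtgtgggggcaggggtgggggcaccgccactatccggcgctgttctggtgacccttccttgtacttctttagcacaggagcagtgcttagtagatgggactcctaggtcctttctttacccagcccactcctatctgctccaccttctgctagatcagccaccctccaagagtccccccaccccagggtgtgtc
The searched motifs, on both strands, were GGAAATTCC (an NF-kappaB site variant), the general NF-kappaB consensus by name, TTCNNNGAA (the GAS element bound by STAT factors), TGANTCA (AP-1) and TGTGGT (RUNX). Icam1 held GGAAATTCC at 153 to 145 bases before the start, which 0.286% of the 32851 windows of all genes held, and TTCCCGGAA, a GAS match, at 42 to 34 bases before it, where 7.02% of windows held a GAS match. GGAAATTCC was added to the search after the Icam1 window had been read, so its share is a description only. The Itgb7 window held none of these letters. A match describes the sequence and says nothing about binding in these cells.

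Selplg (ENSMUSG00000048163, chr5:113818536-113832644, minus strand), which encodes PSGL-1, had 581, 14.5 and 199 CPM in naive and 697, 498, 623 and 475 CPM in allograft libraries. Naive replicate 1 lay within the allograft range and the other naive libraries below it. Its log2 fold change was 1.10 (SE 0.882, edgeR adjusted p = 0.775) and 0.52 (SE 0.431, adjusted p = 0.555) without naive replicate 2.

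Cd44 (ENSMUSG00000005087, chr2:102811141-102901665, minus strand) had 175, 5.74 and 402 CPM in naive and 349, 323, 426 and 403 CPM in allograft libraries. Here naive replicate 3 lay within the allograft range and naive replicate 1 below it, the reverse of Selplg. For Cd44 the log2 fold change was 0.90 (SE 0.968, edgeR adjusted p = 0.846) and 0.32 (SE 0.363, adjusted p = 0.699) without naive replicate 2.

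Levels per gene length gave the same 3 leading members in all 4 allografts. In the allografts, mean FPKM was 285 ± 52.3 for Itgb7, 116 ± 20.96 for Selplg, 47.9 ± 6.18 for Cd44 and 29.6 ± 1.94 for Icam1 (SD, n = 4). Itgb7 exceeded Selplg, and Selplg exceeded Cd44, in 4 of 4 allografts without overlap of their ranges, and so did Cd44 exceed Icam1. Below these, Itgb2 (24.0 ± 4.70), Itgb1 (23.9 ± 5.37), Itga4 (16.3 ± 3.21) and Itgal (10.3 ± 7.12) overlapped from each neighbour to the next, and Icam1 overlapped Itgb2. Itgae (5.03 ± 0.708) and Itga6 (0.814 ± 0.595) were lowest and did not overlap each other, while the ranges of Itgae and Itgal met at their edges (highest Itgae 5.89, lowest Itgal 5.89). Selplg exceeded Cd44 in naive replicate 1 but not in naive replicate 3 (41.1 against 52.5 FPKM). In naive replicates 1 and 3, Itgb7 was again the highest (201 and 115 FPKM) and Icam1 ranked the 8th of 10 in both (5.78 and 10.1 FPKM), while in the allografts it ranked the 4th or 5th. In naive replicate 2 the order differed, with Itgb1 (20.1 FPKM) and Icam1 (10.8 FPKM) at the top.

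**Figure D5:**
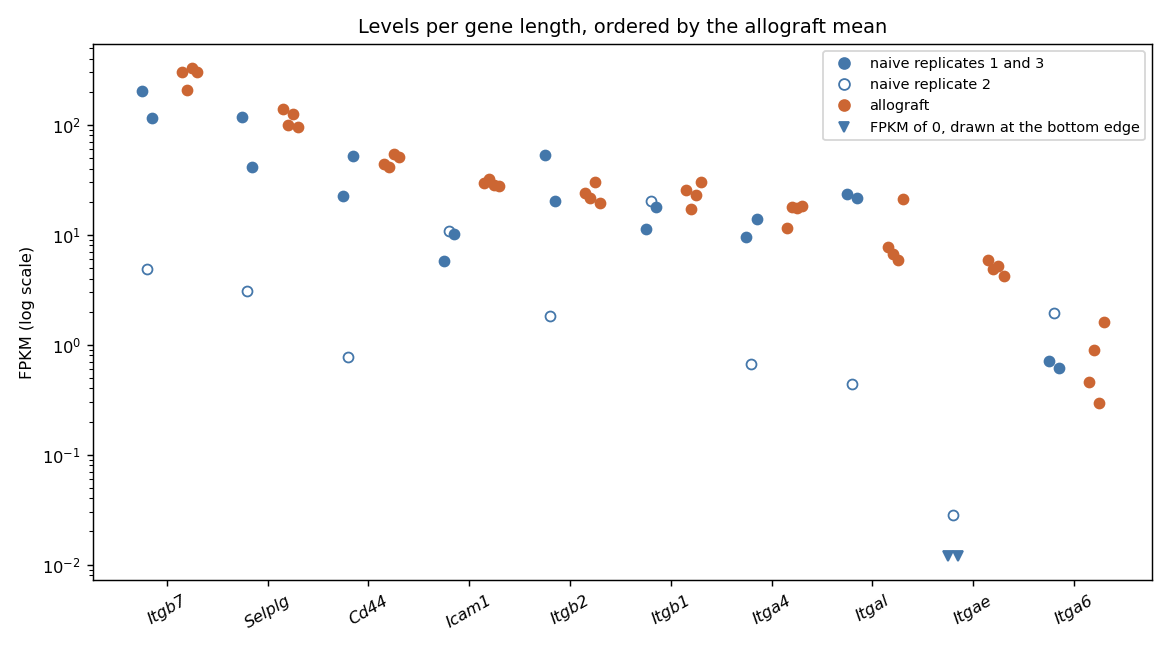
FPKM of each member in each library on a log axis, ordered by the allograft mean (blue naive, open blue naive replicate 2, orange allograft; triangles at the bottom edge mark an FPKM of 0). Itgb7 leads in all libraries but naive replicate 2, and Itgae is at 0 or at 0.0280 in the naive libraries.

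Set against Ptprc, the pan-leukocyte gene for CD45, in the same library, the members kept part of this pattern. Icam1 per Ptprc transcript, as a ratio of FPKM, was 0.922 to 1.60 in the allografts, 0.504 and 0.368 in naive replicates 1 and 3, and 18.5 in naive replicate 2. Itgb7 per Ptprc was 5.94 to 16.4 in allografts and 17.6, 8.36 and 4.21 in naive replicates 1 to 3, so that its groups overlapped on this scale. Cd44 per Ptprc was 1.18 to 2.46 in allografts and 1.98, 1.32 and 1.92 in naive libraries, and naive replicate 2 lay within the allograft range. Itgae per Ptprc was 0.138 to 0.318 in allografts and at most 0.0479 in naive libraries.

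A set of 6 wider lists covered 91 genes of the adhesion machinery, of which 76 identifiers were tested and 0 passed with edgeR over all 7 libraries (9 at an unadjusted p under 0.05, where 10.3% of all genes were, 4 with DESeq2, where 6.51% of all genes were called, and 0 with limma on log2(FPKM + 1)). Above 0 were 36 of the 76, and 54 of 78 without naive replicate 2, against 49.4% and 58.7% of all genes. Without that library, genes with 0 counts in naive replicates 1 and 3 could only be above 0, in the lists as among all genes. The direction of several lists turned when naive replicate 2 was left out. Among other integrin alpha chains (11 tested, 3 with a log2 fold change above 0, median -0.69), all 13 tested without naive replicate 2 were above 0. Their median was then 7.07 as fitted and 3.01 with the 8 genes at 0 in both naive libraries set to their lower bounds. These 8 passed the count filter through the allografts, so their direction was fixed in advance. In this list, Itgav, the vitronectin receptor chain, had 135, 20.5 and 227 CPM in naive and 151 to 330 CPM in allograft libraries. Itga3 had at most 27.2 CPM in any library. Itgax, the alpha chain CD11c known from dendritic cells, had 0 counts in all 3 naive libraries and 7.88, 10.6, 6.73 and 8.73 CPM in the allografts, at least 133-fold higher (edgeR adjusted p = 0.144, or 0.0344 without naive replicate 2). Of other beta chains (3 tested, 1 above 0, median -1.06), 2 were above 0 without naive replicate 2 (median 1.24). Itgb3, the partner of Itgav, had 70.3, 6.37 and 141 CPM in naive and 203, 301, 219 and 316 CPM in allograft libraries. All allografts lay above all naive libraries for Itgb3, and the fitted change was 1.79 on the log2 scale (SE 0.791, edgeR adjusted p = 0.513), or 1.24 without naive replicate 2 (adjusted p = 0.141). Itgb5 had 46.6 and 31.5 CPM in naive replicates 2 and 3 and at most 6.93 CPM in the other libraries. Itgb6 was above 1 CPM only in naive replicate 2 (38.2 CPM).

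Of the integrin activation genes, 25 were tested and 18 were above 0 (median 0.30), and 14 without naive replicate 2 (median 0.13). Rap1b, a small GTPase upstream of talin, had 1297, 182 and 768 CPM in naive and 838 to 1040 CPM in allograft libraries. Skap1, an adaptor of the same pathway, had 879, 20.0 and 419.6 CPM in naive and 514 to 648 CPM in allograft libraries. Cytip, which binds cytohesin, had 438, 37.7 and 469 CPM in naive and 518 to 553 CPM in allografts, all above the naive libraries (log2 fold change 0.71, edgeR adjusted p = 0.813, and 0.19, adjusted p = 0.589, without naive replicate 2).

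Integrin ligands (12 tested, 2 above 0, median -0.95) turned to 8 above 0 (median 1.93) without naive replicate 2. Of these 8, 4 had 0 counts in naive replicates 1 and 3 and could only be above 0. The list included Spp1, which encodes osteopontin and is also made by kidney tubules. It had 5848 CPM in naive replicate 2, 30.7 and 182 CPM in naive replicates 1 and 3 and 41.7 to 71.3 CPM in allografts. Icam2, another ligand of LFA-1, had 18.3, 56.3 and 31.5 CPM in naive and 31.9 to 43.3 CPM in allografts. Unlike Icam1 it overlapped between the groups (log2 fold change -0.31, edgeR adjusted p = 0.923, and 0.49, adjusted p = 0.520, without naive replicate 2). F11r, a junctional adhesion molecule, had 205 CPM in naive replicate 2, 0 in the other naive libraries and 8.52 to 11.5 CPM in allografts.

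Selectin pathway genes (15 tested, 4 above 0, median -0.20, and 8 above 0, median 0.07, without naive replicate 2) overlapped between the groups for the 3 most abundant, the glycosylation genes B4galt1 (110, 27.1 and 278 CPM in naive, 104 to 152 in allografts), C1galt1c1 (40.9, 52.7 and 15.2, against 11.8 to 18.1) and the tyrosine sulphotransferase Tpst2 (57.7, 12.2 and 35.8, against 46.4 to 60.5). Of hyaluronan and CD44 partner genes (10 tested, 8 above 0, median 0.31, and 9 above 0, median 0.77, without naive replicate 2), Stab2, a hyaluronan scavenger receptor best known from sinusoidal endothelium, had 1338, 10.6 and 538 CPM in naive and 610 to 776 CPM in allograft libraries. The linkers of CD44 to actin, Msn (350, 54.5 and 359 CPM in naive, 331 to 389 in allografts) and Ezr (79.3, 133 and 105, against 115 to 142), overlapped between the groups.

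Across the 7 libraries, the genes whose log2 CPM followed each member most closely were sought among 4939 tested genes with a symbol and an average log2 CPM of at least 5. The points share libraries and depth, and naive replicate 2 dominates most of these correlations, so they are descriptions. Icam1 was followed most closely by Ccr7 (Pearson's r 0.983), which encodes the receptor for lymph node chemokines, and Irf8 (r 0.981). Both were higher in every allograft, Ccr7 at 198 to 269 CPM against 5.37 to 29.2 CPM in naive and Irf8 at 72.2 to 93.3 against 10.6 to 25.5 CPM. Selplg was followed by Klrg1 (r 0.9999), an ILC2 marker, and Gpr171 (r 0.999), Itgb7 by Hcls1 and Cxcl3 (r 0.996 each), and Cd44 by Siah2 (r 0.998) and Stk24 (r 0.997). Itga4 was followed by Lilr4b (r 0.999) and Rbpj (r 0.998), Itgal by Ssbp3 (r 0.993) and Hnrnpa1 (r 0.991), and Itgb2 by Ero1l and Parp1 (r 0.995 each). The closest genes to Itgae were Hspe1 and 1810058I24Rik (r 0.991 each), which both had far smaller log2 fold changes (0.29 and 0.36). For Itgb1 (Pcbd2, r 0.920, and Ubxn1, r 0.907) and Itga6 (Kidins220, r 0.852, and Sec62, r 0.814) the closest genes followed less tightly.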

How the data were processed

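RNA of 7 libraries labelled as sorted ILC2s was purified on small columns and amplified as full-length cDNA, per the labels' protocols, without molecular identifiers, so intervals and floors cover counting error only. The authors deposited whole-number counts per gene and FPKM, which scale counts by gene length and depth. The submitters' processing notes name FastQC 0.11.5, STAR 2.5.3a, StringTie 1.3.1c, DESeq2 1.16.1 and mm10, without roles. In 7340 genes (100 or more counts per library), FPKM per CPM was constant up to a factor per gene and per library (SD 0.00252, log2), so both tables hold 1 measurement. No table column was left unmapped to a sample.

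Counts were tested with edgeR 4.0.16 (quasi-likelihood, TMM, filterByExpr, no covariate, R 4.3.3), adjusted by Benjamini-Hochberg over all genes tested, at 0.05. Alternatives used DESeq2 1.42.0, limma 3.58.1 and the settings named in the closing section. The fit was tested on simulated data with the same variability for every gene and no library set apart as naive replicate 2 was. That setting differs from these data, so it does not cover them. SEs are those implied by the F value. Positions and exon overlaps are from GENCODE M21 (GRCm38, the same assembly as mm10). CPM are per library total. A symbol in the lists matched 1 identifier, except Itgam, which matched 2. Replicates are pools, p-values measure the spread between these pools, and the members and lists were chosen with earlier results of these data known. Named were all members, the 3 genes of each list with the highest mean FPKM, any list gene past the threshold and the 2 genes nearest each member. Marker lists of 14 cell types were summed. In ranges, naive then allograft, the lists not given elsewhere summed to 0 to 117 and 88.5 to 144 CPM (B cell), 2.49 to 443 and 148 to 224 CPM (macrophage or monocyte), 0 to 12.7 and 74.6 to 124 CPM (neutrophil), 14.6 to 407 and 178 to 217 CPM (mast cell or basophil), 0 to 4.55 and 1.36 to 5.75 CPM (platelet), 776 to 2937 and 468 to 595 CPM (erythroid), 0.0566 to 141 and 15.1 to 71.5 CPM (fibroblast) and 0 to 9.22 and 1.06 to 5.59 CPM (cardiomyocyte). The values of 1 list gene are not reported here.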

Additional observations from a re-analysis of the deposited data

Results flagged for a closer look

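In the 4 allografts, 34 values of members, named list genes and subunit ratios were searched for a library that lies apart from its group. This was so for 3 of them, and about 1.7 would be found by chance. Itgal had 158 CPM in allograft replicate 4 against 44.4 to 59.3 CPM in the other allografts. Itga4 had 187 CPM in allograft replicate 1 against 281 to 292 CPM. Itgb6 had 0.685 CPM in allograft replicate 3 and 0 in the others, a level too low to read.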

How the results depend on the processing

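Over 16 alternatives, genes past the threshold numbered 6 with all 7 libraries (5 higher, 1 lower), 1227 with DESeq2 (826 higher, 401 lower), 76 and 201 with limma on log2(FPKM + 1) and log2(FPKM + 0.1), and 0 to 560 without single libraries. They were 107, 560 and 7 without naive replicates 1, 2 and 3, and 0 without any 1 allograft (848 to 1074 at an unadjusted p under 0.05). Members called were 1 with DESeq2 and with either limma fit (Itgae in each), and 0 to 2 without single libraries, 2 only without naive replicate 2. List genes called were 4 with DESeq2, 2 with limma on log2(FPKM + 0.1), and 0 to 7 without single libraries (1 without naive replicate 1, 7 without naive replicate 2). The adjusted p ran from 1.3e-06 to 1 for Itgae and from 0.0437 to 1 for Icam1. DESeq2 size factors moved the median of all genes to -0.20, library totals to 0.18, limma on log2(FPKM + 0.1) to 0.52 and the block to 0.55.

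Itgae, Itga4, Itgb1, Itgb7, Selplg, Cd44 and Icam1 kept their direction in all 16 alternatives. The log2 fold change of Itgal was 0.11 and 0.47 with the limma fits, that of Itga6 ran from -1.32 to 0.28 without single libraries, and that of Itgb2 from -0.63 to 1.05, with 0.73 and 0.89 in the limma fits; the causes were not tested. Itga3 was 0.23 and 1.155 (limma) and -1.25 to 2.57 without single libraries, Icam2 0.021 (library totals), 0.11 and 0.13 (limma) and -0.67 to 0.49, F11r 0.031 and 1.91 (limma) and -3.90 to 11.66, B4galt1 0.33 and 0.38 (limma) and -0.67 to 0.77, and Ezr -0.23 with DESeq2 and with its size factors, -0.011 without mitochondrial genes and -0.22 to 0.46. Without single libraries, Rap1b ran from -0.18 to 0.80, Skap1 from -0.16 to 1.35 and Stab2 from -0.48 to 1.25. The ratio Itgal/Itgb2 ran from -0.86 to 0.22 and Itga4/Itgb1 from -0.25 to 2.08 (log2), reversing without naive replicates 3 and 2. Itgae/Itgb7 kept its direction, at 4.46 to 7.84 without single libraries and 0.125 with FPKM + 1.

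Groups share replicate numbers, but same-numbered libraries did not deviate together (r 0.0167, -0.018 and 0.0368 for numbers 1 to 3), naive replicate 1 correlated best with allograft replicate 3 (0.0644), and the samples share only a number. With the replicate block, 0 genes, 0 members and 0 list genes were called (252 genes and 2 members at an unadjusted p under 0.05); the block gave Itgb2 0.79, Itga3 1.58, Icam2 0.022, F11r 7.38 and B4galt1 0.16. Depth limits what a count of 0 shows to 0.0566 to 0.103 CPM per library.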

Other observations

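Without naive replicate 2, edgeR called 7 further genes of the 6 lists, all higher in allografts, where 3% of all genes were called higher. All had 0 counts in naive replicates 1 and 3, so they passed the count filter through the allografts and could only be called higher. Those 2 libraries also had a count in fewer genes (15820 and 13864) than the allografts (19235 to 21354), and its part in these differences was not tested. The 6 described were chosen for mention after their values were seen. Each fold is a lower bound against a floor of 3 counts per library. Among the collagen and matrix receptors, Itga1 had 4.47 ± 0.746 CPM (SD, n = 4) in allografts, at least 71.3-fold above naive replicates 1 and 3, but 51.1 CPM in naive replicate 2. Itga2, with 0 counts in naive replicate 2 as well, had 8.78 ± 2.47 CPM, at least 138-fold above the 3 naive libraries. Itgax was given above. Vcl, the talin-binding protein vinculin, had 10.2 ± 3.90 CPM (at least 163-fold), but 10.5 CPM in naive replicate 2.

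Cdh1 encodes E-cadherin, the ligand of the Itgae/Itgb7 dimer. It had 4.82 ± 2.12 CPM in the allografts, at least 76.8-fold above naive replicates 1 and 3, and 86.5 CPM in naive replicate 2. F11r followed the same pattern, with 10.1 ± 1.56 CPM in allografts (at least 161-fold) and 205 CPM in naive replicate 2, the library in which the kidney epithelium genes summed to 9762 CPM.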
